A study of Arabidopsis thaliana with 16 samples.

Results

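The genes described here are 10 master regulators of embryo and seed development in Arabidopsis thaliana: LEC1, L1L, LEC2, FUS3, ABI3, BBM, AGL15, WRI1, ABI4 and DOG1. They were taken by name and locus, 10 of 27444 nuclear protein-coding genes, and every one of them was found in the annotation. For each gene, the position and the covered length of the peaks on the gene and within 1 kb of it were read in every peak list. The covered length of a gene counts its bases under peaks.

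The study profiled monoubiquitinated histone H2A (H2Aub) and histone H3 trimethylated at lysine 27 (H3K27me3) by ChIP-seq in whole seedlings, 12 days after germination. Seedlings of ubp5, which carry a CRISPR/Cas9 deletion that removes part of the DUSP and UBP domains of the ubiquitin protease UBP5, were compared with wild-type Col-0 seedlings. Both genotypes share the Col-0 background, plates of sucrose-containing Murashige and Skoog medium, cold stratification and long days. The ubp5 plants are a single deletion line, and every tissue carries the deletion. H2Aub was profiled in 3 ubp5 and 3 Col-0 libraries, and H3K27me3 in 2 ubp5 and 2 Col-0 libraries. The 6 input samples are not analysed here. The labels call the libraries replicates, and the study's methods call them biological replicates. Neither says which seedlings each came from, so the tests measure the spread between these libraries.

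The product of each of these genes drives a stage of seed life. LEC1 and L1L are NF-YB subunits of a CCAAT-binding factor. LEC2, FUS3 and ABI3 are B3-domain proteins that bind the RY repeat and switch on embryo identity and storage reserves. BBM and AGL15 promote embryo formation from somatic cells, WRI1 turns on fatty acid synthesis, ABI4 acts in abscisic acid and sugar signalling, and DOG1 sets seed dormancy. After germination, the programme is shut off by the VAL repressors, which also bind the RY repeat, by the chromatin remodeller PKL and by Polycomb. Polycomb repressive complex PRC1 places H2Aub and PRC2 places H3K27me3. UBP5 belongs to the proteases that remove ubiquitin, and the comparison asks how both marks lie on its possible targets once it is missing.

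The lists differed in how much was called. Peaks with a score over 30, the score being the −log10 q-value times 10 without decimals, covered 10.9 to 27.8 Mb in the ubp5 H2Aub lists and 11.6 to 21.2 Mb in the Col-0 H2Aub lists. They covered 14.2 to 14.7 Mb in the ubp5 H3K27me3 lists and 14.6 to 16.6 Mb in the Col-0 H3K27me3 lists. Replicate 2 was the smallest ubp5 H2Aub list and replicate 1 the smallest Col-0 one. By the study's account of its sequencing, ubp5 replicate 2 had the fewest and ubp5 replicate 3 the most uniquely mapped reads of the H2Aub libraries, and the H2Aub lists of both genotypes grow in the order of their depth. An absent peak therefore means not called at the depth of that library, and the part of depth in the results was not tested. Whether fewer marked cells or less mark per cell lies behind a short peak cannot be told apart in whole seedlings. The peak lists do not show the deletion, so they give no check of the genotype label. All 100-base words of the members and 1 kb on each side occurred once in the nuclear genome, so unmarked stretches within these windows were not exact repeats of that length.

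The promoters are shown first, because RY repeats are the sites that the B3 proteins and the VAL repressors read, and because telobox and GAGA words are known from Polycomb target genes. Words searched on both strands were CATGCA (RY repeat), AAACCCTA (telobox) and GAGAGAGA (GAGA repeat), from 250 bases before to 50 bases after the annotated start. None of the words contains another. Of 27443 promoters of this length, 9.72% held the RY word, 6.22% the telobox word and 8.38% the GAGA word. Among the 9 members searched, all but ABI4, the RY word was in 3 (LEC1, FUS3, AGL15), the telobox word in 1 (AGL15) and the GAGA word in 3 (LEC2, FUS3, BBM). Below are the 5 member promoters with a match, from 220 bases before the start to 30 after it, 5′ to 3′ along the gene, read from the RefSeq genome TAIR10.1, with matches to any of these words in capitals.
LEC1, chr1:7729620-7729869, strand minus: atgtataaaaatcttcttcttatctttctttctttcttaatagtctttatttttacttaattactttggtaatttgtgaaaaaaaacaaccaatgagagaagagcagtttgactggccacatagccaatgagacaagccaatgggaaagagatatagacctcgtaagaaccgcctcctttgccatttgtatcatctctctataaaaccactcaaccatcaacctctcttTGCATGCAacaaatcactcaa
LEC2, chr1:9899847-9900096, strand minus: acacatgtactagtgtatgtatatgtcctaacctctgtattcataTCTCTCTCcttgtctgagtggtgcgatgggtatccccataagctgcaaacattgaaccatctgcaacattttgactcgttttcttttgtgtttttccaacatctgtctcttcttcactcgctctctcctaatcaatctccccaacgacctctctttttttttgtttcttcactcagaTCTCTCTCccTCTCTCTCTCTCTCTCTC
FUS3, chr3:9856183-9856432, strand minus: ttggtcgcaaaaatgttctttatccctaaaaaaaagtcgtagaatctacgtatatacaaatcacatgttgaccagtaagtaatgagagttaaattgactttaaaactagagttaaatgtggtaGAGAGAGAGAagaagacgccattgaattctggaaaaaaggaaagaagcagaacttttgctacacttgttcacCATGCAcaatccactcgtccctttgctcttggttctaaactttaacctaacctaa
BBM, chr5:5745719-5745968, strand minus: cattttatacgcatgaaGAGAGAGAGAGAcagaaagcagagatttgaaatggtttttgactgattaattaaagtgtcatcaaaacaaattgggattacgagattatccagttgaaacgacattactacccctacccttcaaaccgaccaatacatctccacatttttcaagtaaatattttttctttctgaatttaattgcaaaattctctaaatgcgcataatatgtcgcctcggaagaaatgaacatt
AGL15, chr5:4450929-4451178, strand minus: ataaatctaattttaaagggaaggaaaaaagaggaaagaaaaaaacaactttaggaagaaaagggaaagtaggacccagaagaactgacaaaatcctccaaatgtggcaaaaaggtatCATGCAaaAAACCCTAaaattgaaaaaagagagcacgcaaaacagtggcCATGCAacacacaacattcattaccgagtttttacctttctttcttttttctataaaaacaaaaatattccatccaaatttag

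The LEC1 word lies within the transcript, as overlapping matches at positions 10 and 12 counted from the annotated start, and the run reads the same on both strands. In LEC2 a run of overlapping GAGA matches (read as TC) begins at position 13. AGL15 has an RY word at −102 and the telobox word right beside it at −94, and another RY word at −53. Among these 9, FUS3 is the one member with both an RY and a GAGA word in this window. In the wider stretch of the gene and 1 kb on each side, the RY words of these 9 genes were most frequent per kb in ABI3, with 10 words or 1.72 per kb, and DOG1, with 7 words or 1.71 per kb. The nuclear genome held 0.497 per kb. LEC2 and FUS3 held 1 each, at 0.200 and 0.228 per kb. Of the 10 ABI3 words, 9 lay under H3K27me3 peaks of both Col-0 libraries, which held 80.1% of the bases searched there. It was 5 of 6 words in BBM, with 88.0% of the bases, and 6 of 7 in DOG1, with 57.4%. In LEC2 it was 0 of 1, with 83.3%, and in LEC1 2 of 5, with 20.9%. Overlapping matches were counted separately, in these genes and in the genome. The 2 LEC1 words are the overlapping ones at positions 10 and 12. BBM has overlapping ones at 105 and 107, and DOG1 at −393, −391 and −389. A match is a word in the sequence, and binding was not measured here.

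Most of the master regulators carried H3K27me3 in both genotypes, and 5 of them carried both marks in all 10 libraries. A gene was called marked in a genotype when a peak of at least 1 bp lay on it in at least 2 libraries. H3K27me3 marked 8 of 10 members in ubp5 and 8 of 10 in Col-0, against 20.6% of all genes in ubp5 and 20.6% in Col-0. The same 8 genes were marked in both, all but L1L and WRI1. None was marked by H3K27me3 only in ubp5 (3.00% of all genes) or only in Col-0 (2.98%). H2Aub marked 8 of 10 members in ubp5, where 69.0% of all genes were marked, and 8 of 10 in Col-0, where 46.8% were. A single member, FUS3, was marked by H2Aub only in ubp5 (25.1% of all genes), and a single one, ABI4, only in Col-0 (2.87%). Both marks lay on 6 members in ubp5 (15.3% of all genes) and on 6 in Col-0 (14.2%), with LEC1, ABI3, BBM, AGL15 and DOG1 among them in both genotypes.

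As a share of the gene, the median member had 89.2% under H3K27me3 peaks in ubp5 and 88.9% in Col-0, while the median of all genes was 0 in both. For H2Aub, the median member had 30.3% of the gene covered in ubp5 and 35.6% in Col-0, while the median of all genes was 22.2% in ubp5 and 9.04% in Col-0. No member had H2Aub cover longer in all ubp5 libraries than in any Col-0 one, while 16.8% of the 22354 genes with any H2Aub cover did. At L1L alone the H2Aub cover was shorter in every ubp5 library, as at 4.31% of genes. With lists trimmed to equal covered length, the members changed: L1L overlapped, H2Aub cover was shorter in every ubp5 library at ABI3, and it was longer in every one at WRI1. H3K27me3 cover was longer in both ubp5 libraries at 1 of 9 members with any cover, AGL15 (12.8% of 7464 genes), and shorter at LEC1 and BBM (29.8%). Single libraries moved these small counts. Members with longer H2Aub cover numbered 2 without ubp5 replicate 2. Those with shorter H2Aub cover numbered 2 without ubp5 replicate 3 and 3 without Col-0 replicate 1. Those with shorter H3K27me3 cover numbered 5 without ubp5 replicate 2 or Col-0 replicate 1. The shares of genes given here hold for untrimmed lists and all libraries, so they are no measure for these altered counts. No gene of the genome passed an adjusted p of 0.05 in an exact permutation test over libraries with Benjamini-Hochberg adjustment, where the smallest adjusted p was 0.474 for H2Aub and 0.783 for H3K27me3. The design allows no raw p under 0.1 for 3 against 3 libraries and none under 0.333 for 2 against 2.

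**Figure D1:**
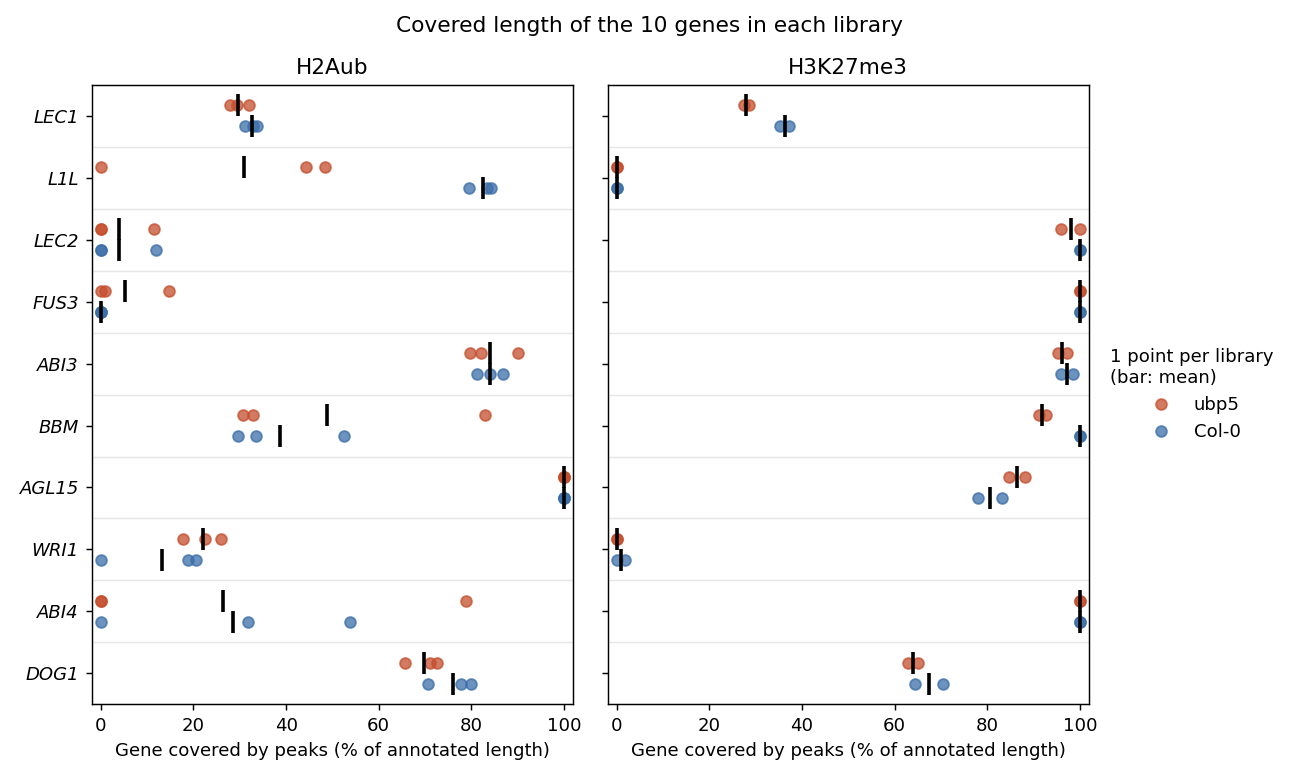
Share of each gene's annotated length under peaks (x axis, percent), with 1 point per library and a black bar at the mean, for H2Aub (left) and H3K27me3 (right), with ubp5 above Col-0 in each row. L1L is the one member whose ubp5 points all lie below its Col-0 points for H2Aub, and H3K27me3 points are near 0 at L1L and WRI1 only.

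LEC1 (AT1G21970, chr1:7727577-7729649, minus strand) has a short first exon, a long intron and a second exon with most of the coding sequence. Its length under H2Aub peaks was 609, 576 and 662 bp in the ubp5 libraries, and 647, 680 and 701 bp in the Col-0 libraries. The Col-0 values were mostly higher, but ubp5 replicate 3 lay within their range. The difference was −60.3 bp (exact permutation test, two-sided, p = 0.2, n = 3 each). Every one of these peaks began between position 1192 and 1273 and ended by 1892, while the second exon begins at 1236 and its coding part ends at 1900. From 576 to 657 bp of each peak were coding. So the mark sat on the second exon and left the promoter, the first exon and nearly all of the intron uncovered.

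On the LEC1 gene, H3K27me3 lay mainly on the same stretch. It covered 571 and 590 bp in the ubp5 libraries, and 732 and 772 bp in those of Col-0. The genotypes did not overlap, and the difference of −171.5 bp reached the smallest p that 2 against 2 libraries allow (exact permutation test, p = 0.333). Much of it came from a small extra peak over the start of the gene, from −119 to 97 in Col-0 replicate 1 and from −162 to 96 in Col-0 replicate 2. Neither ubp5 list held a peak there. That peak spans the RY word of LEC1 shown above. Its fold over background was 2.00 and 2.75, and its −log10 q of 4.20 and 10.2 put it at the 13.0 and 35.7 percentile of the 2 Col-0 lists. Every H3K27me3 library also held a peak further upstream, which ended at −1023 and −949 in ubp5, and at −1043 and −952 in Col-0. On the gene, bases under both marks in at least 2 libraries numbered 560 in ubp5 and 635 in Col-0.

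By −log10 q, the H2Aub peak of the exon stood at the 79.5, 72.5 and 86.1 percentile of its list in ubp5, against 91.1, 95.3 and 95.3 in Col-0. Its fold over background was 3.58, 3.72 and 4.38 in ubp5, and 4.09, 6.87 and 6.37 in Col-0. The H3K27me3 peak stood at the 39.7 and 53.5 percentile in ubp5 and at the 68.2 and 82.8 percentile in Col-0. The H2Aub folds overlapped between the genotypes. A percentile is a place within its own list, and the H2Aub lists held 9786 to 19014 peaks in ubp5 and 8457 to 14728 in Col-0, so percentiles do not compare the genotypes.

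L1L (NF-YB6 in the annotation, AT5G47670, chr5:19314778-19316169, plus strand) is the closest relative of LEC1 and can stand in for it in the embryo. H2Aub covered 675, 0 and 616 bp of the gene in ubp5, and 1173, 1162 and 1108 bp in Col-0. All Col-0 libraries lay above all ubp5 libraries. The mean was 430 ± 374 bp in ubp5 and 1148 ± 34.8 bp in Col-0 (SD, n = 3 each), a difference of −717 bp (exact permutation test, p = 0.1, adjusted p = 0.474). The difference turned to 61 bp when only peaks with a score over 60 were kept. That filter dropped the Col-0 peaks of replicates 1 and 2, whose −log10 q was 3.64 and 4.86. With lists of equal covered length, L1L kept 0 bp in each ubp5 library, and 1173, 0 and 0 bp in Col-0. The genotypes then overlapped, with a difference of −391 bp (exact permutation test, p = 1, n = 3 each).

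The 3′ end of the peak on the gene differed as well. In ubp5 the L1L peak ran from position 258 to 932 in replicate 1 and from 253 to 868 in replicate 3. In Col-0 it began at 220, 231 and 176 and reached 2659, 3388 and 1283. The Col-0 peaks thus ran further towards the 3′ end, and past it in replicates 1 and 2. They touched the neighbour TRM10 (AT5G47680), which overlaps that end of L1L, in all 3 libraries. In ubp5 replicates 1 and 3 a separate peak lay further downstream, from 1887 to 3585 and from 1964 to 3687. Col-0 replicate 3 also had one, from 2164 to 3531, so a separate downstream peak did not set the genotypes apart. A H2Aub peak about 1 kb upstream was called in all 6 libraries, ending between −1329 and −1015. The nearest H3K27me3 peak was 14434 and 14391 bp away in ubp5 and 14300 and 14366 bp away in Col-0, so that the 2 NF-YB genes differed: LEC1 carried both marks and L1L only H2Aub.

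LEC2 (AT1G28300, chr1:9896867-9899876, minus strand) lay in one of the widest H3K27me3 domains of the genome. Of its 3010 bp, H3K27me3 covered 2889 and 3010 bp in ubp5, and all of them in each Col-0 library. The peak was 18305 and 18578 bp wide in ubp5, and 20697 and 20804 bp wide in Col-0. These widths stood at the 99.4 to 99.6 percentile of the lists. Upstream of the gene the domain reached −15416 and −15421 in ubp5, and −17523 and −17596 in Col-0. It touched 3 further genes in every library, AT1G28305, AT1G28306 and AT1G28310.

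In ubp5 replicate 2 a separate H3K27me3 peak lay from −17411 to −16695, within the stretch that the Col-0 domain covers, and replicate 1 had none there. H2Aub was nearly absent from LEC2 itself. It covered 0, 0 and 347 bp in ubp5, and 0, 0 and 358 bp in Col-0. The 2 libraries with a peak, replicate 3 of each genotype, hold the largest list of their genotype, and both peaks lie over the start of the coding sequence, at 37 to 383 and 33 to 390. All 6 H2Aub libraries held a peak within the far upstream part of the domain, between −13842 and −10978.

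FUS3 (AT3G26790, chr3:9853828-9856212, minus strand) was covered by H3K27me3 over all of its 2385 bp in all 4 libraries. The domain was 4993 and 5150 bp wide in ubp5, and 4881 and 5248 bp wide in Col-0, so the genotypes overlapped. H2Aub covered 21, 0 and 349 bp of the gene in ubp5, and 0 bp in each Col-0 library. The call of FUS3 as marked only in ubp5 rests in replicate 1 on a promoter peak that just reaches into the gene. This peak ran from −1385 to 21 in ubp5 replicate 1 and from −1321 to 58 in ubp5 replicate 3. Most of the 349 bp in ubp5 replicate 3 came from a separate peak in the last coding exon. It ran from 1892 to 2182, with 291 bp on the gene.

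No Col-0 library had a H2Aub peak within 4642 bp of FUS3, and the nearest one in ubp5 replicate 2 was 18685 bp away. The promoter peak was weak, with a fold of 1.84 and 2.07 and a −log10 q at the 0.444 and 28.9 percentile of its list. With lists cut to equal covered length, FUS3 had no H2Aub cover in any library, a difference of 0 bp. The RY word at −25 and the GAGA words at −97 and −95 of the printed FUS3 window lie within this peak in both libraries. Its difference in covered length was 123 bp (exact permutation test, p = 0.4, n = 3 each).

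ABI3 (AT3G24650, chr3:8997370-9001185, plus strand), which keeps its role in abscisic acid response into germination, carried both marks across its body in all 10 libraries. H2Aub covered 3130, 3041 and 3438 bp in ubp5, and 3314, 3103 and 3210 bp in Col-0. H3K27me3 covered 3634 and 3709 bp in ubp5, and 3661 and 3757 bp in Col-0. The genotypes overlapped for both marks. With lists of equal covered length, H2Aub on ABI3 kept 0, 3041 and 0 bp in ubp5, and 3314, 3103 and 3210 bp in Col-0, a difference of −2195 bp without overlap (exact permutation test, p = 0.1, n = 3 each), against −6 bp in the lists as used. That trimming took most from the longest lists, those of ubp5 replicates 1 and 3. All 2163 coding bp were covered in each of the 10 libraries.

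The marks differed at the 5′ end of ABI3. H2Aub began within the gene, between position 203 and 530, and none of the 6 libraries had H2Aub in the 1 kb upstream. H3K27me3 covered that 1 kb in full in all 4 libraries and began at −1342 and −1332 in ubp5, and at −1300 and −2104 in Col-0. By −log10 q the H3K27me3 peak of ABI3 stood at the 99.3 and 99.2 percentile in ubp5 and at the 98.8 and 99.3 percentile in Col-0. Its fold was 5.12 and 6.09 in ubp5, and 4.95 and 7.93 in Col-0. No other member ranked as high for H3K27me3. Its H2Aub peak ranked only at the 56.9, 31.1 and 61.5 percentile in ubp5, and at the 44.2, 65.1 and 72.6 percentile in Col-0.

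**Figure D2:**
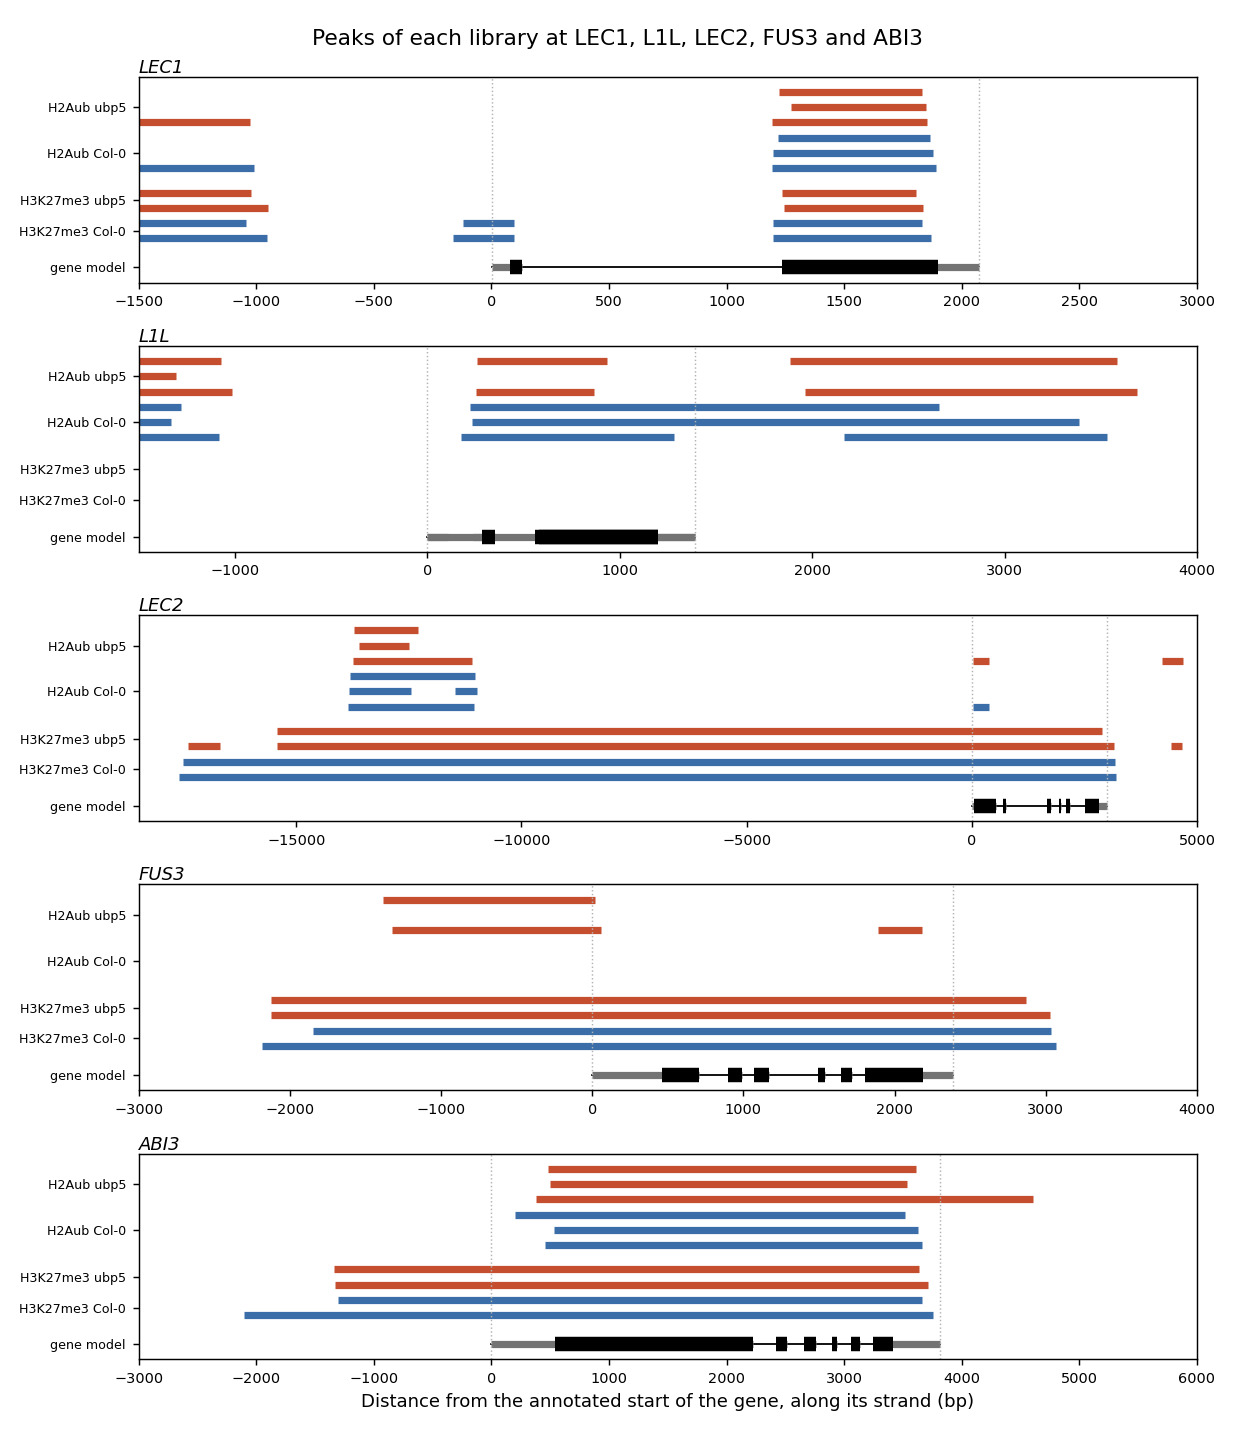
Peaks with a score over 30 in each library (horizontal bars, ubp5 red above Col-0 blue, replicates from top to bottom) at LEC1, L1L, LEC2, FUS3 and ABI3, by distance from the annotated start in bp. The gene model shows coding sequence in black, other exons in grey and introns as a line, over all transcripts. The H2Aub bars on LEC1 begin near the start of its second exon, and the LEC2 domain reaches −15416 or further upstream. The bar at the FUS3 promoter is present in 2 ubp5 libraries.

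The 3 B3 genes thus split by H2Aub while sharing H3K27me3. With peaks of a score over 30, H2Aub covered on average 3203 bp of ABI3 in ubp5 and 3209 bp in Col-0, but 116 bp of LEC2 in ubp5 and 119 bp in Col-0, and 123 bp of FUS3 in ubp5 and 0 bp in Col-0. In H3K27me3, LEC2 and FUS3 were covered nearly end to end in every library.

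BBM (AT5G17430, chr5:5742393-5745748, minus strand), an AP2 factor of the AINTEGUMENTA-like family, carried both marks. H2Aub covered 1099, 1029 and 2783 bp in ubp5, and 1124, 997 and 1764 bp in Col-0. The libraries overlapped, and replicate 3 had the longest cover in each genotype. The peak began inside the gene in ubp5 replicates 1 and 2, at 127 and 161, and upstream of it in all Col-0 libraries, at −527, −442 and −401. In ubp5 replicate 3 it began at −1021, so the position of this edge did not separate the genotypes. The difference in covered length was 342 bp (exact permutation test, p = 0.7, n = 3 each) and turned to −722 bp with lists of equal covered length.

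H3K27me3 covered 3110 and 3060 bp of BBM in ubp5, and its full 3356 bp in each Col-0 library. The domain ended at 3110 and 3060 in ubp5, inside the last coding exon (2483 to 3207), and at 3712 and 3721 in Col-0, past the end of the gene. The upstream edge lay at −3689 and −3642 in ubp5, and at −3549 and −3771 in Col-0, and so overlapped between the genotypes. The difference of −271 bp reached the smallest p the design allows (exact permutation test, p = 0.333, n = 2 each).

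AGL15 (AT5G13790, chr5:4448862-4450958, minus strand), a MADS-box factor that accumulates in embryos, was the member with the largest share of its length under H2Aub. H2Aub covered all 2097 bp of the gene in all 6 libraries. The peak began between −129 and −46, ran on downstream in all of them and touched AT5G13780. By −log10 q it stood at the 88.3, 72.9 and 89.0 percentile in ubp5, and at the 81.8, 80.8 and 86.0 percentile in Col-0. The RY and telobox words at −102 and −94 lie at this upstream edge.

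H3K27me3 at AGL15 lay within the H2Aub peak. It covered 1775 and 1849 bp in ubp5, and 1634 and 1744 bp in Col-0. Both ubp5 libraries lay above both Col-0 libraries, by 123 bp on average (exact permutation test, p = 0.333, n = 2 each). Counted with 1 kb on each side, the genotypes overlapped, since the peak of Col-0 replicate 2 began 50 bp upstream of the gene. The peak stood at the 36.6 and 37.5 percentile in ubp5, and at the 11.8 and 31.0 percentile in Col-0. AGL15 was the only member with longer H3K27me3 cover in both ubp5 libraries. The difference was 68 bp without Col-0 replicate 1 and 940 bp with a score over 60.

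WRI1 (AT3G54320, chr3:20114488-20118745, plus strand) carried H2Aub near its 5′ end. H2Aub covered 956, 753 and 1100 bp in ubp5, and 0, 799 and 875 bp in Col-0. The libraries overlapped, as ubp5 replicate 2 lay below both Col-0 libraries that had a peak. The difference was 378 bp (exact permutation test, p = 0.3, n = 3 each), and 99.3 bp without Col-0 replicate 1. With lists of equal covered length, WRI1 kept the same lengths in ubp5 and 0 bp in each Col-0 library, a difference of 936 bp without overlap (exact permutation test, p = 0.1, n = 3 each). The peak ran from 199 to 1298 at the most, over the 5′ exons. Its fold was 5.23, 3.22 and 4.35 in ubp5, and 2.13 and 2.46 in Col-0 replicates 2 and 3. By −log10 q it stood at the 94.5, 49.1 and 88.3 percentile in ubp5, and at the 17.9 and 46.6 percentile in those Col-0 libraries. Col-0 replicate 1, the smallest Col-0 list, had none within 19454 bp.

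No H3K27me3 peak of its own lay on WRI1. A domain over the neighbour AP3 (AT3G54340), a floral homeotic gene, began 336 and 44 bp past the end of WRI1 in ubp5. In Col-0 it began 15 bp past the end in replicate 1 and overlapped the last 73 bp of WRI1 in replicate 2. WRI1 was therefore counted as unmarked in both genotypes.

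ABI4 (AT2G40220, chr2:16796247-16797585, minus strand), an AP2/ERF factor, has a single exon. H3K27me3 covered all 1339 bp and 1 kb on each side in all 4 libraries. The domain was 5759 and 5709 bp wide in ubp5, and 7116 and 7172 bp wide in Col-0. The downstream edge was nearly the same in all of them, at 4385 and 4381 in ubp5, and at 4409 and 4457 in Col-0, and the domain touched AGL48 (AT2G40210). The upstream edge lay at −1374 and −1328 in ubp5, and at −2707 and −2715 in Col-0. Most of the difference in width was thus on the promoter side.

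H2Aub covered 0, 0 and 1057 bp of ABI4 in ubp5, and 0, 425 and 720 bp in Col-0. A peak was present in 1 of 3 ubp5 and in 2 of 3 Col-0 libraries, which gave the call as marked only in Col-0. The lengths overlapped, and the difference was −29.3 bp (exact permutation test, p = 1, n = 3 each). In ubp5 replicates 1 and 3 a H2Aub peak lay further upstream, from −2830 to −2381 and from −2877 to −2362, and no Col-0 library had one between there and the gene. This stretch overlaps the part of the promoter that H3K27me3 covered in Col-0 and not in ubp5. It was singled out after the values were seen.

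DOG1 (AT5G45830, chr5:18589418-18591506, minus strand) carried both marks over its promoter and the 5′ part of the gene. H2Aub covered 1483, 1370 and 1518 bp in ubp5, and 1475, 1670 and 1623 bp in Col-0, a difference of −132 bp (exact permutation test, p = 0.3, n = 3 each). H3K27me3 covered 1313 and 1357 bp in ubp5, and 1346 and 1471 bp in Col-0. The genotypes overlapped for both marks. In all 10 libraries the peak ended between 1313 and 1670, and the 3′ end of the gene was left uncovered. An antisense transcript is known to start near that end.

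Upstream of DOG1, H3K27me3 reached −1196 and −2003 in ubp5, and −4452 and −3169 in Col-0. The Col-0 peaks touched the neighbour AT5G45840 and the ubp5 peaks did not. H2Aub did not share this: its peak began at −1624, −1511 and −2805 in ubp5, and at −2695, −1637 and −2761 in Col-0. A further H2Aub peak about 1 kb past the 3′ end was called in all ubp5 libraries and in Col-0 replicates 2 and 3.

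**Figure D3:**
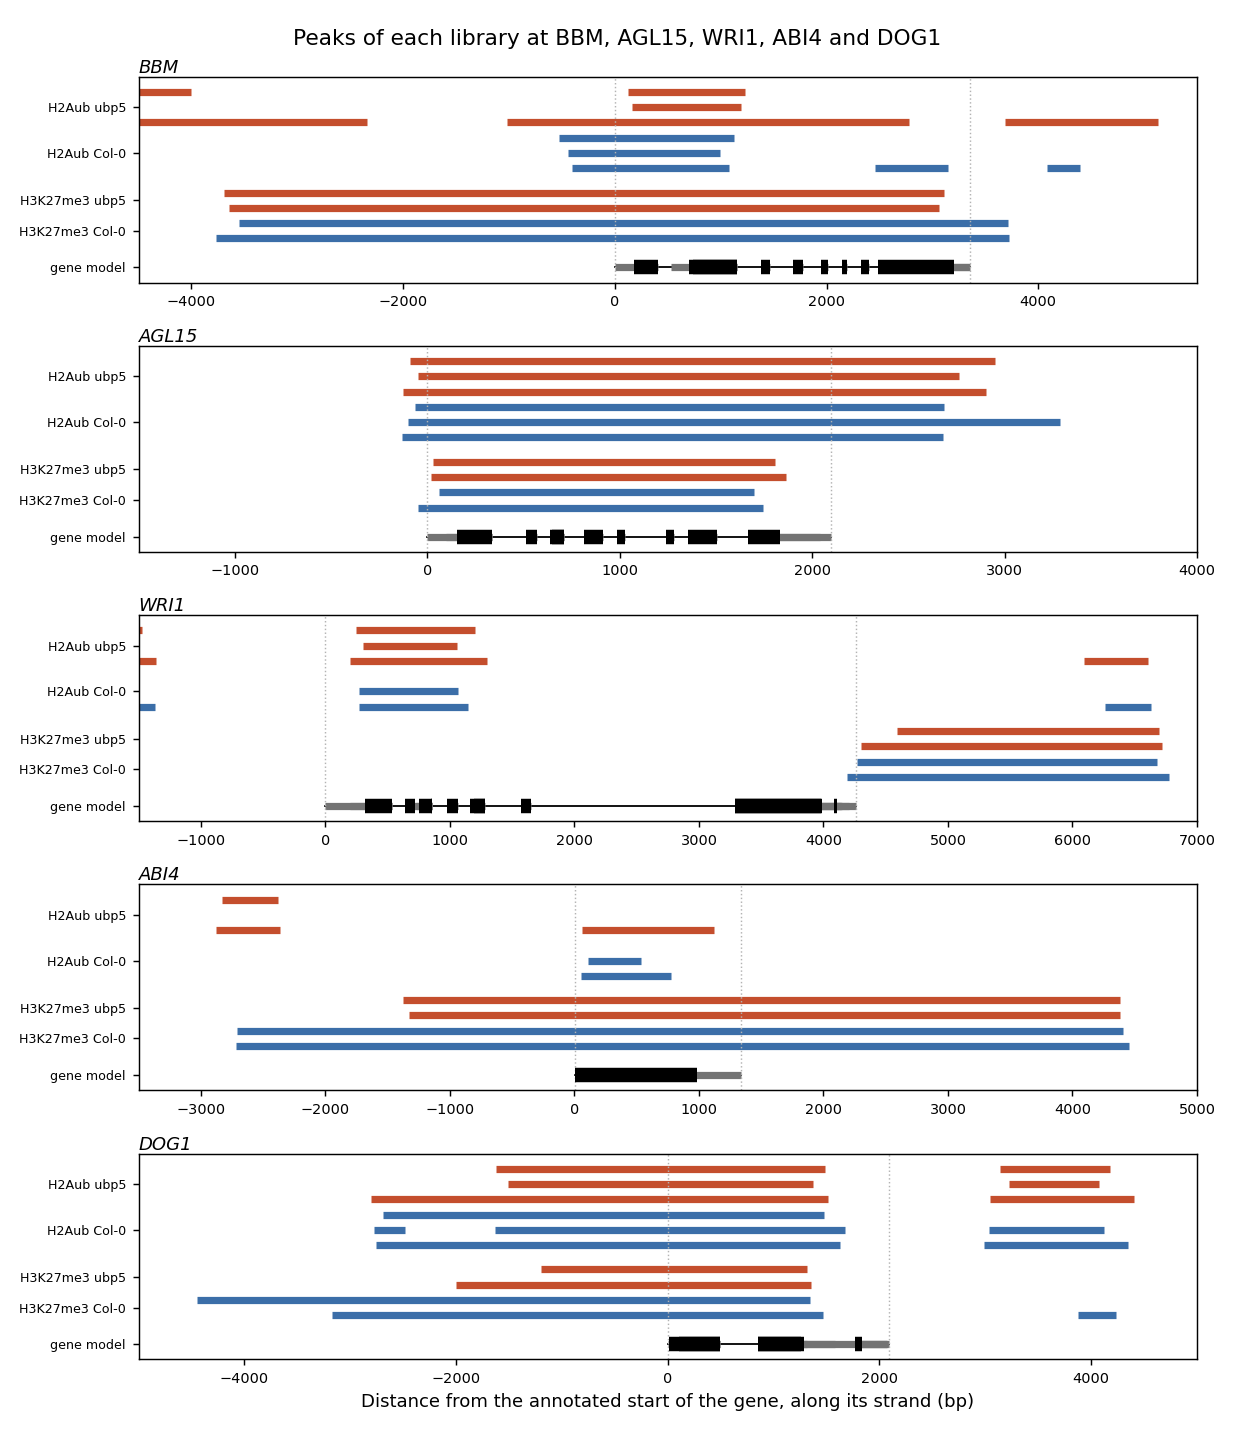
Peaks with a score over 30 in each library (horizontal bars, ubp5 red above Col-0 blue, replicates from top to bottom) at BBM, AGL15, WRI1, ABI4 and DOG1, by distance from the annotated start in bp, with gene models drawn as coding sequence (black), other exons (grey) and introns (line). The H3K27me3 bars of ABI4 and DOG1 begin nearer to the gene in both ubp5 libraries, and the H3K27me3 bars beside WRI1 lie past its end.

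The full width of the H3K27me3 peak was compared across the 8 members that had one in every library, a measure added after the values were seen. Both ubp5 peaks were narrower than either Col-0 peak at 5 of 8 members: LEC1, LEC2, BBM, ABI4 and DOG1. It was wider in both at none, while FUS3, ABI3 and AGL15 overlapped. Of the 4845 genes with a peak in all 4 libraries, 46.0% had a narrower peak in both ubp5 libraries and 10.4% a wider one, so narrower H3K27me3 peaks were common throughout these lists. Of the 4 lists, that of Col-0 replicate 2 covered the most. Without it 3 members had a wider peak in both ubp5 libraries, and without ubp5 replicate 1 there was 1, while the narrower ones numbered 5 to 7 with each library left out. On average the ubp5 width was 56.2% of the Col-0 width at DOG1, 80.3% at ABI4, 88.6% at LEC1, 88.9% at LEC2 and 91.5% at BBM. H2Aub peaks of the 5 members with a peak in all 6 libraries were narrower in every ubp5 library at none of them (8.29% of 6345 genes) and wider at none (12.4%). Without ubp5 replicate 3 the narrower ones were 3, and without ubp5 replicate 2 or Col-0 replicate 1 there was 1. No share of genes is given with a library left out, for either mark.

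**Figure D4:**
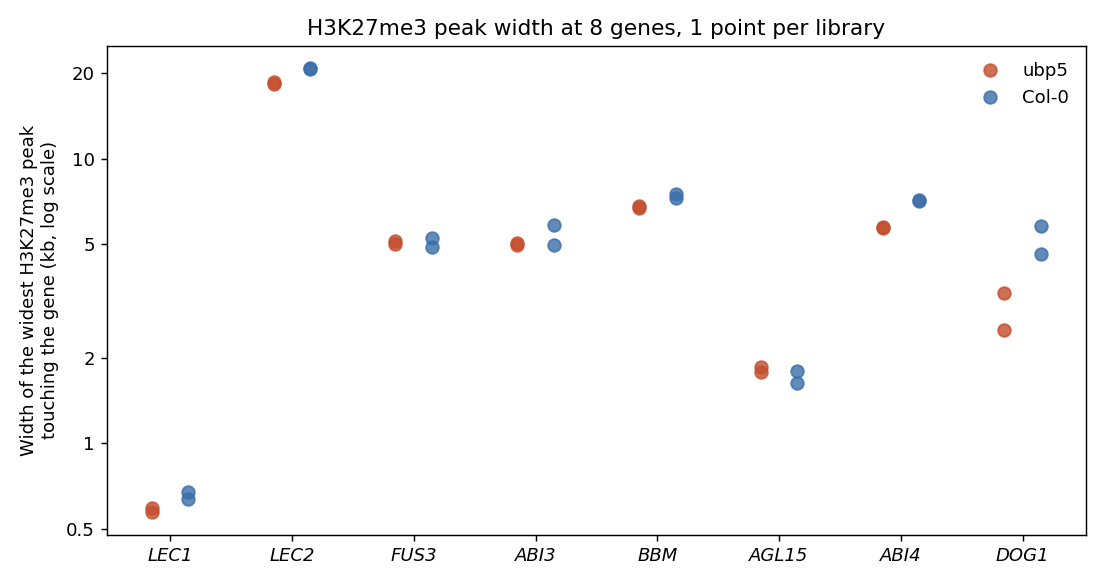
Width of the widest H3K27me3 peak touching each of 8 genes (y axis, kb, log scale), with 1 point per library, ubp5 left of Col-0. The ubp5 points lie below the Col-0 points at LEC1, LEC2, BBM, ABI4 and DOG1, and LEC2 stands apart with widths of 18305 to 20804 bp.

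By the pattern of present and absent peaks over the 10 libraries, LEC1, ABI3, BBM, AGL15 and DOG1 had a peak in all of them, as did 1889 other genes (6.88%). The pattern of LEC2 was shared by 152 other genes, that of FUS3 by 108, that of ABI4 by 72, that of L1L by 1088 and that of WRI1 by 7. Likeness was also measured as the Euclidean distance in percent of the gene covered over the 10 libraries. The gene nearest to LEC1 was DPBF2 (bZIP67, AT3G44460), a bZIP factor of seed maturation that works with LEC1 and L1L, at a distance of 10.1, and the next was PAB5 at 13.8. The nearest were FAR7 at 0.898 and AT4G15060 at 2.78 for FUS3, WRKY10 at 3.42 and WOX11 at 4.79 for LEC2, and AT5G03000 at 9.40 and NAC020 at 9.87 for ABI3. For AGL15 they were NSP4 at 7.53 and AT5G62860 at 10.9, and for DOG1 ESM1 at 12.1 and IPT1 at 13.0. BBM had no near match, with GA1 at 31.2 and BOP1 at 31.4. ABI4 was nearest to AT5G25300 at 12.5 and AT3G03272 at 14.9, and WRI1 to NRPD2B at 2.66 and AT1G51520 at 2.95.

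A list of 26 other genes of the seed programme was read in the same way: 4 repressors, 6 bZIP partners, 14 close relatives of the members and 2 embryo MYB factors. H2Aub marked 22 of 26 in ubp5 (69.0% of all genes) and 18 of 26 in Col-0 (46.8%). Marked only in ubp5 were 4 (PKL, bZIP10, AGL18, PLT2), while 25.1% of all genes were, and none was marked only in Col-0 (2.87%). H3K27me3 marked 13 of 26 in ubp5 (20.6%) and 14 in Col-0 (20.6%), the difference being AIL6. Both marks lay on 11 in ubp5 (15.3%) and on 11 in Col-0 (14.2%).

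None of the repressors VAL1, VAL2, VAL3 and PKL had a H3K27me3 peak in any library, while 20.6% of all genes were marked in each genotype. All 4 were marked by H2Aub in ubp5 (69.0% of all genes), against 3 in Col-0 (46.8%), where PKL had no H2Aub peak. H2Aub covered 1302, 697 and 1443 bp of VAL2, a B3 repressor, in ubp5, and 0, 199 and 392 bp in Col-0. It covered 644, 917 and 466 bp of PKL in ubp5, and 0 bp in each Col-0 library. Neither gene overlapped between the genotypes, and each reached the smallest p the design allows (exact permutation test, p = 0.1, adjusted p = 0.474, n = 3 each).

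Among the bZIP partners and relatives, H2Aub covered 805, 626 and 775 bp of bZIP10 in ubp5, and 0, 0 and 582 bp in Col-0. AGL18, the closest relative of AGL15, had 561, 552 and 742 bp in ubp5, and 0 bp in each Col-0 library. Both genes had longer H2Aub cover in every ubp5 library. PLT2, a relative of BBM that acts in the root meristem, had 527, 0 and 605 bp in ubp5, and 0, 0 and 540 bp in Col-0, and overlapped.

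H2Aub was shorter in every ubp5 library at ABI5, the bZIP factor of abscisic acid response in seeds. It covered 550, 0 and 526 bp in ubp5, and 981, 883 and 1454 bp in Col-0. ABI5 had no H3K27me3 peak in any library, while 20.6% of all genes were marked by it in each genotype. In bZIP67 the H2Aub cover was also shorter, with 820, 713 and 802 bp in ubp5, and 835, 848 and 861 bp in Col-0. H3K27me3 covered 851 and 840 bp of bZIP67 in ubp5, and 861 and 901 bp in Col-0. DOGL3, a relative of DOG1, had 889, 839 and 911 bp of H2Aub in ubp5, and 929, 915 and 958 bp in Col-0. Its H3K27me3 cover was 847 and 870 bp in ubp5, and the full 1042 bp in each Col-0 library. For AIL6, H3K27me3 covered 1543 and 0 bp in ubp5, and 1865 and 2017 bp in Col-0, while its H2Aub values overlapped. In all, 4 of the 24 listed genes with any H2Aub cover were longer in every ubp5 library (16.8% of all genes with any cover) and 3 were shorter (4.31%). For H3K27me3, 1 of 14 was longer in both ubp5 libraries (12.8%) and 3 were shorter (29.8%). The listed genes were read only in untrimmed lists with a score over 30. Whether their differences hold with lists of equal covered length was not tested.

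**Figure D5:**
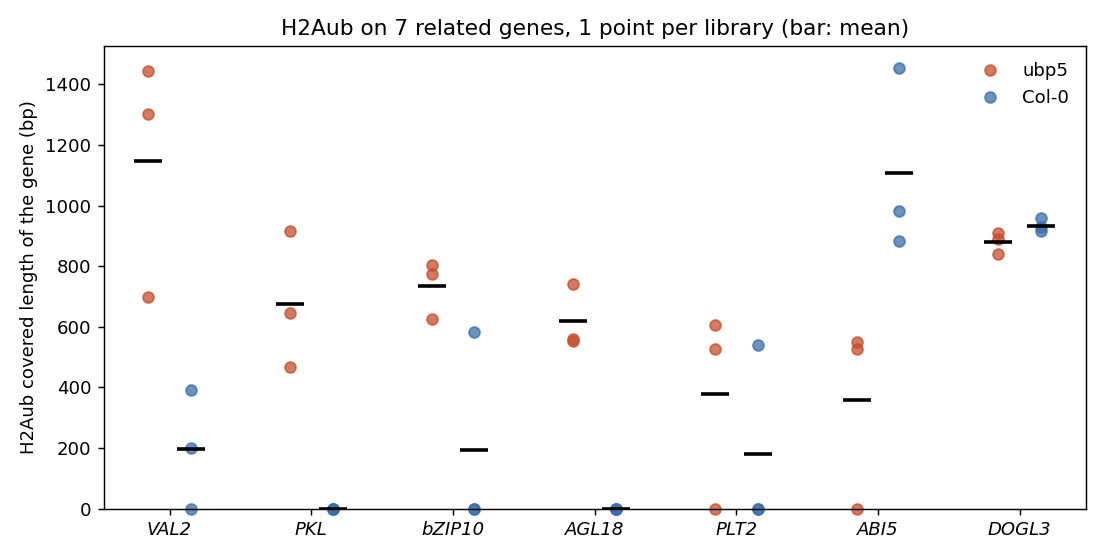
H2Aub covered length in bp on 7 related genes in untrimmed lists, with 1 point per library, a black bar at the mean and ubp5 left of Col-0. The ubp5 points all lie above the Col-0 points at VAL2, PKL, bZIP10 and AGL18, and all below them at ABI5 and DOGL3.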

How the data were processed

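ChIP-seq peak lists of 10 libraries were used, without the 6 inputs, which are not analysed here. Labels gave the groups and replicate numbers. Per the study's methods and processing notes, the authors mapped paired-end reads to TAIR10 with STAR 2.7.8a, removed duplicates with Picard, kept unique reads and called broad peaks with MACS3 3.0.0 per library against input. The deposited score is the −log10 q-value times 10 without decimals. The deposited fold is a ratio of signal to background, averaged over each peak, as are the −log10 p and −log10 q columns that the authors deposited. They depend on depth and were used to filter and rank peaks within a list. The lowest deposited −log10 q was 3.00 in the H2Aub lists and 1.01 in the H3K27me3 lists, so the authors had filtered them differently. A score over 30 was applied to all. Read depth was not used, and the precision rests on the spread between libraries.

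Genes were the 27444 nuclear protein-coding genes of RefSeq's TAIR10.1, and all peaks ended within its 5 chromosomes. Positions are counted from 1 at the annotated start, with no position 0. Covered lengths were compared over all genes by two-sided exact permutation tests with Benjamini-Hochberg adjustment. Alternatives were no score filter, a score over 60, lists trimmed by −log10 q to equal covered length within each mark, 1 kb on each side, cover of at least 50% of the gene, a peak in every library, each library left out and a replicate block. All 10 members were named. Of the related genes, those marked in 1 genotype only or without overlap were named, at most 8, longest mean difference first, and bZIP67 as the gene nearest to LEC1. The members and lists were chosen with earlier results of these data known. Correlations of deviations were −0.10, 0.059 and 0.232 between same-numbered H2Aub libraries, and −0.247 to 0.193 between differently numbered ones. For H3K27me3 they were 0.107 and −0.107. With 3 or 2 libraries per genotype these values do not settle a pairing. The labels give no shared origin, so the main tests did not pair libraries by number. Words were searched in 9 members, and the result for the other one is not reported here. The functions were tested on simulated lists. Python 3.11.15, NumPy 2.4.6 and Matplotlib 3.10.9 were used.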

Additional observations from a re-analysis of the deposited data

How the results depend on the processing

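For covered length, 200 alternative values were computed for 20 results, 1 per member and mark. Of these, 139 kept the direction of the difference and 16 reversed it. Another 36 were 0 bp in both settings, and 9 were 0 bp in one of them. With a score over 60 the H2Aub difference, ubp5 minus Col-0, turned to 61 bp at L1L, 85 bp at ABI3 and 112 bp at ABI4, and it was −589 bp at DOG1, 603 bp at BBM and 19.3 bp at FUS3. It turned to 256 bp at ABI3 with 1 kb on each side, and to −722 bp at BBM with lists of equal covered length, where it was also −2195 bp at ABI3, −391 bp at L1L and 936 bp at WRI1. With each library left out, it ranged from −119 to 116 bp at LEC2, from −123.5 to 75 bp at ABI3, from −231 to 646 bp at BBM and from −382 to 147 bp at ABI4. The H3K27me3 difference at ABI3 ranged from −85.5 to 10.5 bp.

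Members marked by H2Aub in ubp5 numbered 4 with lists of equal covered length and 3 when peaks had to cover at least 50% of a gene. In Col-0 they numbered 5 with a score over 60, 5 with equal covered length and 4 with the 50% rule. Longer H2Aub cover in every ubp5 library was found at 1 member (WRI1) with equal covered length and at 0 to 2 with each library left out. Shorter H2Aub cover was found at 0 members with a score over 60 and at 1 to 3 with each library left out. With 1 kb on each side, 0 members had longer and 5 had shorter H3K27me3 cover, and the shorter ones were 2 to 5 with each library left out. Narrower H2Aub peaks ranged from 0 to 3 members and wider H3K27me3 peaks from 0 to 3 with each library left out. The counts of members marked by H3K27me3 stayed within 1.5 times of the values given. For marking, cover and peak width, no share of all genes is given under the alternative settings. Whether these alternative counts of members differ from those of the whole genome was therefore not tested. From 500 bases before to 250 after the start, the RY word was in 6 of the 9 members searched, the telobox word in 2 and the GAGA word in 5. Of all promoters of that length, 22.1% held the RY word, 16.6% the telobox word and 25.0% the GAGA word.

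The replicate numbers do not come with a shared origin in the labels. A fit with a replicate block leaves the differences as they are, −717 bp at L1L for example, and allows no p under 0.25 for 3 pairs or 0.5 for 2 pairs, so it changed no call. The H2Aub libraries differed in depth, which limits what an absent peak can show.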
